A study of Mus musculus with 10 samples.

Results

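TGF-beta and BMP pathway genes were examined as a group of 10 members, namely 5 ligand genes (Tgfb1, Tgfb2, Bmp2, Bmp4 and Bmp7), 3 receptor genes (Tgfbr1, Tgfbr2 and Bmpr1a) and 2 Smad genes (Smad3 and Smad7). The members were taken by name from 21775 protein-coding genes. Every p63 peak with its midpoint inside a member gene or within 50 kb of either gene end was counted, which gave 19 of the 8451 peaks in the deposited list. The list came from chromatin immunoprecipitation and sequencing (ChIP-seq) of p63, a transcription factor of the p53 family that governs stratified epithelia, with the 4A4 antibody. Chromatin was from MK1 and MK2, which are 2 keratinocyte lines of the mouse. The labels name no treatment and give no strain, age or genotype for either line, nor how the lines were derived. The p63 peaks are 1 joint list from both lines, so no value below has a spread between lines, and no read depth is known. The 6 histone mark libraries and 2 input libraries of the series were not analysed here.

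TGF-beta and BMP ligands are secreted dimers that bring type I and type II receptor kinases together at the cell surface. The type I receptor then phosphorylates receptor-activated Smads, which enter the nucleus and act on target genes, while inhibitory Smads damp the signal. In the epidermis TGF-beta is known for holding keratinocyte growth in check, and BMP signals are known for their part in epidermal fate, differentiation and the hair cycle. p63 itself binds paired copies of a short core word, of which CATG is the best known form.

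The receptors carried the most p63 peaks per gene. There were 10 peaks at the 3 receptor genes, 6 at the 5 ligand genes and 3 at the 2 Smad genes, or 3.33, 1.2 and 1.5 peaks per gene. All 3 receptors and both Smads had a peak. Of the 5 ligands 2 did (40.0%), near the 40.7% of all protein-coding genes. Receptors therefore had 2.78 times as many peaks per gene as ligands. The ratio was 1.67 when a peak was counted only for the gene holding it or nearest to it. Per 100 kb of searched DNA the receptors had 1.85 peaks, the Smads 0.88 and the ligands 0.86. The Smads and the ligands thus differed little once gene length was counted. Over all protein-coding genes the means were 0.79 peaks per gene and 0.53 per 100 kb of window. The members are few and were not drawn at random, and the joint list has no replicates, so the roles were described and not tested against each other.

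Promoter sequence is shown for 3 members that stand for the range seen. The first start of Tgfbr1 had the nearest p63 peak of the 7 members whose start is in the promoter table, the start of Bmpr1a had the next nearest, and Bmp4 had none in its window. Each line gives the 250 bases before the start, 5′ to 3′ on the gene's strand, from RefSeq on GRCm38.p6. The Tgfbr1 window is chr4:47352972-47353221 on the plus strand, the Bmpr1a window is chr14:34502547-34502796 on the minus strand, and the Bmp4 window is chr14:46390670-46390919 on the minus strand. Capitals mark each CATG or CTAG, which read the same on both strands, and each CAAG or CTTG, which are the reverse complements of each other.
Tgfbr1: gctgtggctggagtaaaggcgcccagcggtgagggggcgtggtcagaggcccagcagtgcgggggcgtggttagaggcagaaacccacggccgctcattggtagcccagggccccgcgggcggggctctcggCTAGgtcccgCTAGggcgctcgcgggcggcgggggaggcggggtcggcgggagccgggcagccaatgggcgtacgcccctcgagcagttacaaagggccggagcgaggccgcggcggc
Bmpr1a: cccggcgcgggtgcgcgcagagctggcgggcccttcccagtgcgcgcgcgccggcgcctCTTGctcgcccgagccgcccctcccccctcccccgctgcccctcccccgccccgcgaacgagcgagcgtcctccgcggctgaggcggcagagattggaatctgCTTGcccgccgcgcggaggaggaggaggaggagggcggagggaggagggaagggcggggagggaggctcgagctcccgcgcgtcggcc
Bmp4: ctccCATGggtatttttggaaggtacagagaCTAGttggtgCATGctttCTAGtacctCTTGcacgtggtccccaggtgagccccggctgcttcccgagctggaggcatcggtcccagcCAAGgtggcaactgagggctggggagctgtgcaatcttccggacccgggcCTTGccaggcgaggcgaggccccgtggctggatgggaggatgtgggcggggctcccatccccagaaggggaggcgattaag

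The Tgfbr1 window shown held CTAG in 2 places, with 6 bases between them, and no CATG. A second Tgfbr1 start in the table, at 47386216 inside the gene, has a window with 4 such words, no CATG and no pair so spaced. Bmpr1a held CTTG in 2 places, not spaced in that way. Bmp4 held CATG in 2 places among 7 words in all, and a CTAG stood 6 bases before one CATG. Over 21237 promoter windows of 300 bases at protein-coding genes, 97.5% held at least 1 of the 4 words, 56.3% held a CATG, 23.2% held at least 2, and 6.48% held a pair of these words with 6 bases between. No member peak overlapped these stretches, and the sequence under the peaks was not analysed here.

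A peak was thus found at 7 of the 10 members. Of all protein-coding genes, 40.7% had at least 1 peak in a window drawn the same way. Within 25 kb the same 7 members had a peak, against 29.7% of all protein-coding genes, and within 100 kb 8 members had 1, against 55.2%. At least 3 peaks within 50 kb were found at 4 members, against 9.69% of all protein-coding genes. The members are longer than most genes, with a median length of 67.0 kb against 17.2 kb, and longer genes give larger windows. Among genes of 60 kb or more, 5 of 6 members had a peak, against 50.5% of all such protein-coding genes. Among shorter genes, 2 of 4 members had 1, against 38.4%. That length limit was chosen after the values were seen.

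**Figure D1:**
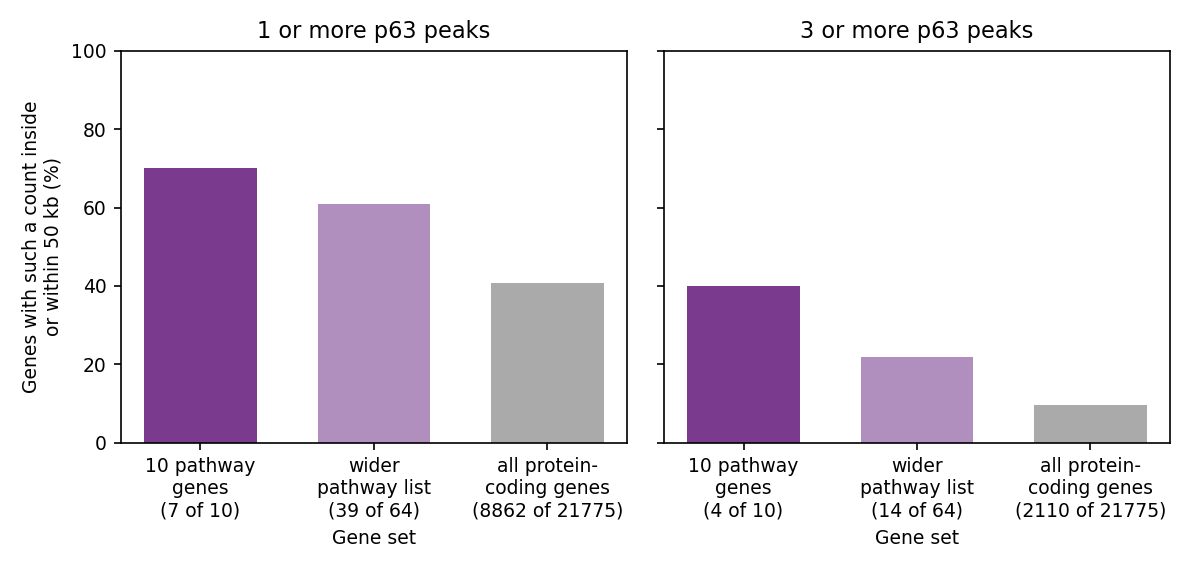
Share of genes (%) with 1 or more (left) and 3 or more (right) p63 peaks inside or within 50 kb, for the 10 pathway genes, a wider list of 64 pathway genes and all protein-coding genes; bars start at 0. The 10 genes stand at 70.0% and 40.0%, the wider list at 60.9% and 21.9%, and all protein-coding genes at 40.7% and 9.69%.

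Among the ligands, peaks lay at Tgfb1 and Bmp7 alone. Tgfb1, which encodes the TGF-beta ligand best known as a brake on keratinocyte growth, lies at 25687002 to 25705077 on the plus strand of chromosome 7 and had 3 peaks. Of these, 2 lay just past the end of the gene, a 272 bp peak at 25705889 to 25706160 and a 280 bp peak at 25708390 to 25708669, with midpoints 0.95 and 3.45 kb beyond it. The second was closer to Ccdc97 (2.58 kb) than to Tgfb1. The remaining peak, of 345 bp at 25644989 to 25645333, was 41.84 kb upstream and inside Bckdha, a gene of amino acid breakdown. No peak lay inside Tgfb1 or within 5 kb of its start.

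Bmp7, a BMP ligand gene at 172868012 to 172940321 on chromosome 2, also had 3 peaks, and for each of them Bmp7 was the nearest protein-coding gene. A pair of peaks sat 1.70 kb apart below the lower end of the gene, 357 bp wide at 172861581 to 172861937 and 257 bp wide at 172863329 to 172863585. Their midpoints were 6.25 and 4.56 kb from that end, inside the non-coding gene Gm36254. The other peak, 268 bp wide at 172937706 to 172937973, lay inside Bmp7, 2.48 kb from its upper end. It was the only peak inside a member ligand. The peaks thus lay at both ends of the gene, the inside peak 74.38 kb from the nearest other peak, and Bmp7 gained none when the flank was enlarged to 100 or 250 kb.

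Tgfb2, Bmp2 and Bmp4 had no peak in their windows. All 3 encode secreted ligands. For Tgfb2, at 186622787 to 186709697 on chromosome 1, the nearest peak was just outside the limit at 52.98 kb, and it was narrow (217 bp). Bmp4, at 46383525 to 46390669 on chromosome 14, had its nearest peak 121.64 kb away. Bmp2, at 133552159 to 133562896 on chromosome 2, had its nearest peak 146.37 kb away. Bmp2 and Bmp4 are the shortest members, at 10.7 and 7.1 kb, and so had the smallest windows. Since depth is unknown, an empty window shows no peak called, and not that p63 was absent.

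**Figure D2:**
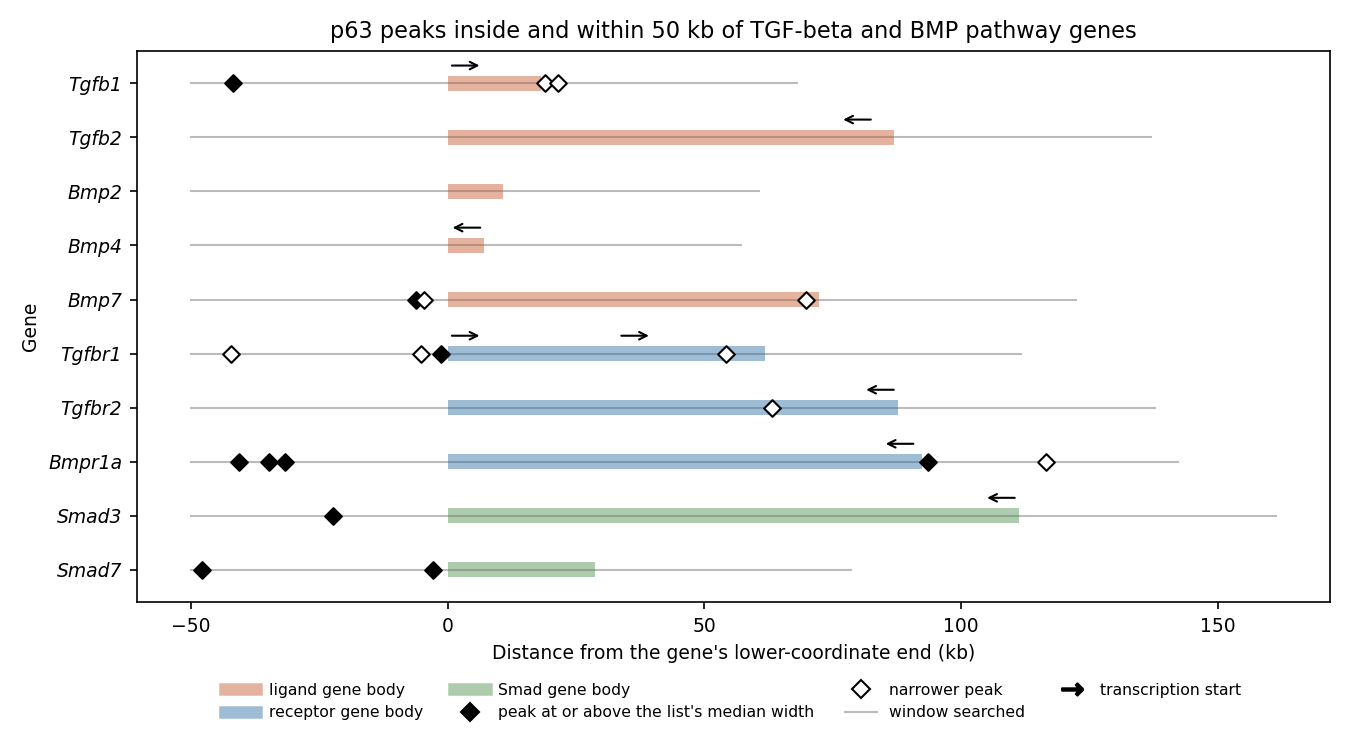
Map of the 10 genes to scale, with distance from each gene's lower-coordinate end in kb on the x axis; coloured bars are gene bodies, grey lines the windows searched, diamonds the peak midpoints (filled at or above the list's median width of 305 bp) and arrows the transcription starts in the promoter table. Only Bmp7, Tgfbr1 and Tgfbr2 hold a peak inside the gene, and the rows of Tgfb2, Bmp2 and Bmp4 are empty.

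Among the receptors, Tgfbr1 and Bmpr1a had peaks a short way upstream of the start, and Tgfbr2 had a single peak inside the gene. Tgfbr1 encodes the type I TGF-beta receptor, at 47353222 to 47414926 on the plus strand of chromosome 4, and had 4 peaks, a count reached by 4.74% of protein-coding genes. The peak nearest to its start, 378 bp wide at 47351752 to 47352129, had its midpoint 1.28 kb upstream, beyond the promoter stretch printed above. A 251 bp peak at 47347878 to 47348128 was 5.22 kb upstream, so the pair was 3.94 kb apart. Another, of 216 bp at 47407255 to 47407470, lay inside the gene, 7.56 kb before its end, and was the narrowest member peak. The fourth, 285 bp wide at 47310833 to 47311117, was 42.25 kb upstream and inside Col15a1, a collagen gene.

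Bmpr1a encodes a type I BMP receptor, at 34411061 to 34503336 on the minus strand of chromosome 14. It had 5 peaks, the most of any member and a count reached by 2.14% of protein-coding genes. Only 1 of the 5 had Bmpr1a as its nearest gene, a 337 bp peak at 34504394 to 34504730, which was 1.23 kb beyond the upper gene end and 2.02 kb upstream of the start in the promoter table. Downstream of Bmpr1a lay a row of 3 peaks, each within 10 kb of the next. They were 320 bp wide at 34370214 to 34370533, 597 bp wide at 34375961 to 34376557 and 681 bp wide at 34378967 to 34379647, and they were 40.69, 34.80 and 31.75 kb past the gene. The first was inside Sncg, which encodes gamma-synuclein, and the others were inside Mmrn2, which encodes an extracellular matrix protein of blood vessels. The last 2 were the widest of all member peaks, wider than 95.1% and 97.4% of the list. The fifth peak, 263 bp wide at 34527513 to 34527775, was 24.31 kb beyond the upper gene end and inside Ldb3, a muscle gene.

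Tgfbr2 encodes the type II TGF-beta receptor, at 116087695 to 116175363 on the minus strand of chromosome 9. Its single peak, 304 bp wide at 116150669 to 116150972, lay inside the gene, 24.54 kb after the start. No other peak of the list was closer than 162.93 kb to it. Tgfbr2 and Smad3 were the members with the lowest counts above 0, and 1 peak or more is a count that 40.7% of protein-coding genes reach.

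Both Smad genes had peaks outside the gene and none inside. Smad3 encodes a receptor-activated Smad of the TGF-beta branch, at 63646766 to 63757994 on the minus strand of chromosome 9. It had 1 peak of 410 bp at 63624261 to 63624670, 22.30 kb past its end and inside Aagab. Smad7 encodes the inhibitory Smad of both branches, at 75367365 to 75395935 on chromosome 18, and had 2 peaks, both below its lower end. A count of 2 or more is reached by 19.7% of protein-coding genes. The closer one, 518 bp wide at 75364330 to 75364847, was 2.78 kb away, inside the non-coding gene Gm20544, and was wider than 90.8% of the list. The other, 327 bp wide at 75319396 to 75319722, was 47.81 kb away, with Dym as its nearest protein-coding gene.

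**Figure D3:**
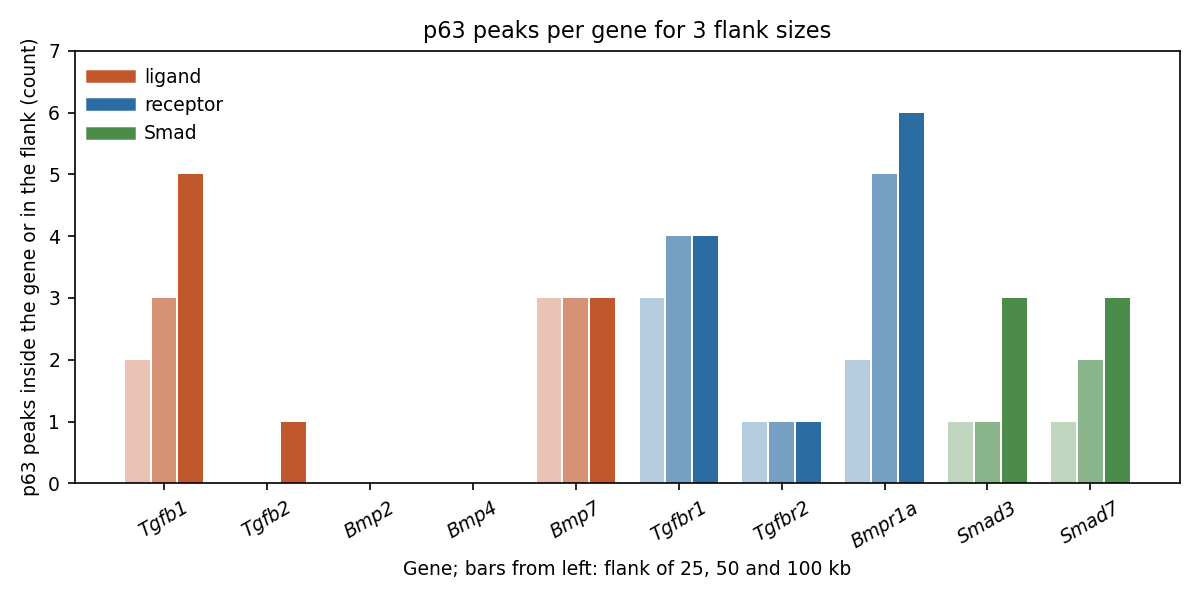
Number of p63 peaks inside each gene or in its flank, with bars from left to right for flanks of 25, 50 and 100 kb and colours for ligands, receptors and Smads. Bmpr1a changes most between the first 2 flank sizes, with 2 and 5 peaks, while Bmp7 stays at 3 and Bmp2 and Bmp4 at 0.

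A wider window added most, in proportion, at the Smads. Just inside it stood the Smad7 peak at 47.81 kb and the Tgfbr1 peak at 42.25 kb. Just outside stood the Tgfb2 peak at 52.98 kb, a Tgfb1 peak at 59.51 kb, a Smad3 peak of 296 bp at 60.36 kb and a Smad7 peak of 609 bp at 60.54 kb. A further Smad3 peak, 741 bp wide and so wider than any peak in a member window, was 79.04 kb away. With a flank of 100 kb the Smads had 6 peaks, the receptors 11 and the ligands 9, and Tgfb2 was added to the genes with a peak.

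By position, most of the 19 peaks were beside the genes, and 3 of the 10 members had a peak inside, against 13.4% of all protein-coding genes. That share was not matched for length: the members have a median of 67.0 kb against 17.2 kb, and those 3 are 61.7 kb or longer. Inside the gene and over 1 kb from its ends lay 3 peaks (15.8%, 95% Wilson interval 5.52 to 37.6), against 24.7% (24.0 to 25.3) of all pairs of a peak and a protein-coding window. Within 1 kb of a gene end lay 1 peak (5.26%, interval 0.935 to 24.6), against 4.31%. Outside the gene, 9 peaks were 1 to 25 kb away (47.4%, interval 27.3 to 68.3), against 34.5%, and 6 were 25 to 50 kb away (31.6%, interval 15.4 to 54.0), against 36.5%. Intervals cover counting error only, and each of the 4 intervals holds the share of all windows. Peaks were inside the gene in 1 of 6 cases at ligands, 2 of 10 at receptors and 0 of 3 at Smads.

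Direction along the gene could be read where the transcription start was known. The start was known for Tgfb1, Tgfb2, Bmp4, Tgfbr1, Tgfbr2, Bmpr1a and Smad3, which had 14 of the 19 peaks. Of these 14 peaks, 6 were upstream of the gene, 6 beyond its far end and 2 inside. A peak within 5 kb upstream of a start was found at Tgfbr1 and Bmpr1a, 2 of these 7 genes, against 3.90% of all protein-coding genes with a start in the table. Both are type I receptor genes. The 5 kb limit and the upstream direction were not among the planned position classes. No peak was that close to the start at Tgfb1, Tgfb2, Bmp4, Tgfbr2 or Smad3.

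A window of 50 kb also takes in peaks that belong more closely to another gene. In 10 of the 19 cases (52.6%) the member was the gene holding the peak or, outside genes, the one with the nearest end, against 42.3% of all pairs of a peak and a protein-coding window. Another protein-coding gene held 7 peaks, and 2 outside genes were nearer to Ccdc97 or Dym. Counted in that way, with no distance limit, Tgfbr1 and Tgfbr2 had 3 peaks each and Bmpr1a 1. The receptors and the ligands then had 7 peaks each, and the ratio of receptors to ligands per gene was 1.67. Smad3 and Bmp2 had 2 each by that count, and Bmp4 and Smad7 had 1 each.

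Some peaks at the members were paired. Another peak lay within 10 kb for 9 of the 19 (47.4%, interval 27.3 to 68.3), against 29.1% of the whole list. The interval holds the share of the whole list, and it treats peaks as independent, which neighbours are not. These were the 3 downstream peaks of Bmpr1a and a pair each at Tgfb1, Bmp7 and Tgfbr1. None of the 3 Smad peaks had such a neighbour.

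Peak width was near that of the whole list. The 19 peaks had a median of 320 bp and a range of 216 to 681 bp, against a median of 305 bp and quartiles of 242 and 392 bp for all 8451 peaks. Of the 19, 10 were at or above the list's median, against 50.0% of the list. Ligand peaks had a median of 276 bp (257 to 357 bp), receptor peaks 312 bp (216 to 681 bp) and Smad peaks 410 bp (327 to 518 bp). All 3 Smad peaks, 5 of 10 receptor peaks and 2 of 6 ligand peaks were at or above the list's median. The ranges of the 3 roles overlapped, and the difference was not tested because peaks of 1 gene are not replicates. All 3 peaks inside member genes were narrower than the list's median, though the Tgfbr2 peak, at 304 bp, only just.

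**Figure D4:**
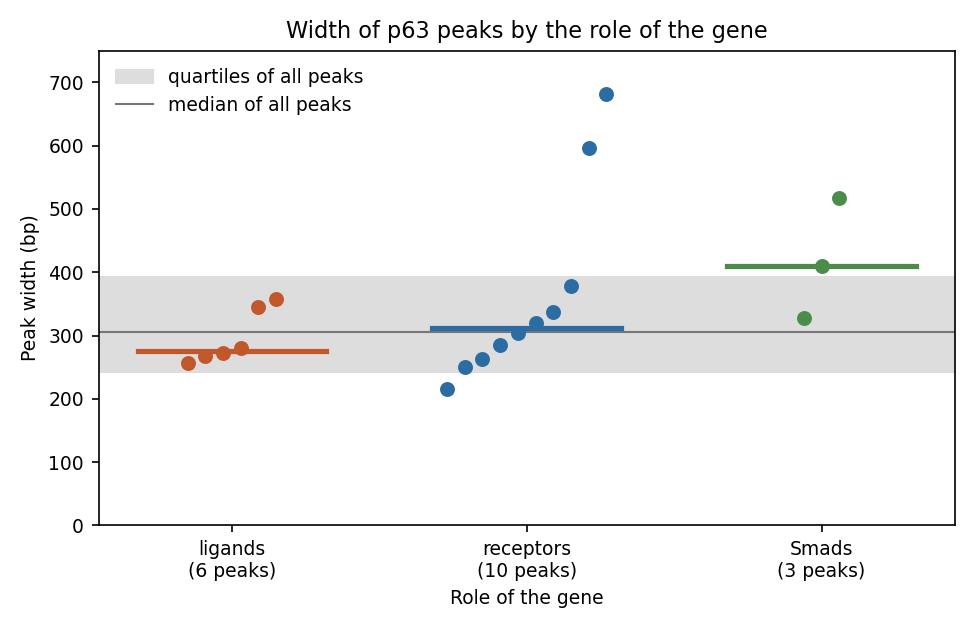
Width in bp of each of the 19 member peaks by the role of the gene, with a bar at each role's median, a grey line at the median of all 8451 peaks and a grey band between their quartiles. Ligand peaks stay within the band, while 2 receptor peaks (both downstream of Bmpr1a) and 2 Smad peaks lie above it.

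Divided by branch, the 5 TGF-beta genes (Tgfb1, Tgfb2, Tgfbr1, Tgfbr2 and Smad3) had 9 peaks and the 4 BMP genes (Bmp2, Bmp4, Bmp7 and Bmpr1a) had 8. That is 1.04 and 1.37 peaks per 100 kb of window, against 0.53 over all protein-coding genes. A peak was present at 4 of 5 TGF-beta genes and at 2 of 4 BMP genes, against 40.7% of all protein-coding genes. Smad7 serves both branches and stands in neither count.

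The wider pathway was read from a list of 64 further genes. Of these, 39 (60.9%) had a peak, against the 40.7% of all protein-coding genes, and 14 (21.9%) had at least 3, against 9.69%. These genes are longer than most, with a median of 30.2 kb against 17.2 kb, and the shares were not matched for length. By role, a peak was present at 7 of 10 receptors, 4 of 6 Smads and 6 of 13 ligands, with Bmp1 counted among the ligands. It was also present at 10 of 17 extracellular regulators, 7 of 10 intracellular regulators and 5 of 8 target genes. Peaks per gene were 2.20 for receptors, 1.15 for ligands and 1.00 for Smads, but the receptors are long (median 89.8 kb, against 22.3 kb for the ligands). Per 100 kb of window there were 0.92 peaks at receptors, 0.83 at ligands and 0.63 at Smads. For the 10 members the receptors and ligands gave 1.85 and 0.86. Of the 15 wider ligand peaks, 5 were at Bmp1, which encodes a protease. The small gap between receptors and ligands here thus depends in part on Bmp1, and values without it were not computed. Each peak was counted once, but overlapping windows, as at Acvrl1 and Acvr1b, were summed in full, which lowers the receptor value. Neighbouring genes share some windows, and the 92 pairs of peak and gene came from 89 peaks. Inside the gene lay 40 of these 92 pairs (43.5%, interval 33.8 to 53.7), against 3 of 19 for the 10 members (15.8%, interval 5.52 to 37.6) and 26.7% over all protein-coding genes. The intervals of the wider list and the members overlap, and that of the wider list lies above 26.7%. Both treat pairs as independent, although Ltbp1 and Itgb6 held 5 inside pairs each and Acvr1 held 4. The share inside also depends on how much of each window is gene body, and it was not matched for gene length. Whether the shares differ was not tested.

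The 8 genes of the wider list with the most peaks were Ltbp1 (7), Ski (6), Acvr1b, Itgb6, Bmpr1b and Bmp1 (5 each), Pmepa1 and Acvr1 (4 each). Of all protein-coding genes, 0.468% reach 7 peaks, 1.03% reach 6, 2.14% reach 5 and 4.74% reach 4. Long genes have larger windows, and Bmpr1b (332.5 kb), Itgb6 (124.3 kb) and Acvr1 (120.4 kb) are long. Ltbp1 encodes a protein that holds latent TGF-beta in the matrix, and 5 of its peaks were inside its 387.0 kb body. Itgb6 encodes a subunit of the epithelial integrin that releases active TGF-beta, and all 5 of its peaks were inside the gene. Ski encodes a co-repressor of Smads and had 1 of its 6 peaks inside. Among receptors, the activin receptor gene Acvr1b had 1 of 5 inside, the BMP receptor gene Bmpr1b 3 of 5 and the BMP receptor gene Acvr1 all 4. Bmp1, which despite its name encodes a protease that trims matrix proteins, had none inside and its nearest peak at 15.50 kb. Pmepa1, which encodes an inhibitor of TGF-beta signalling, had 2 of 4 inside. In all, 25 of the 64 genes had 0 peaks, against 59.3% of all protein-coding genes.

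As a check of the cell type, windows of 50 kb held 4 peaks at Krt5, 2 at Krt14 and 4 at Trp63, genes that mark basal keratinocytes. Windows at genes of other cells held 2 at Col1a1 (fibroblasts), 0 at Pdgfra (fibroblasts) and 3 at Pecam1 (endothelium). Of all protein-coding genes, 19.7% had 2 or more peaks, 9.69% had 3 or more and 4.74% had 4 or more. These counts did not separate keratinocyte genes from the others, since Pecam1 had more peaks than Krt14 and Col1a1 had as many. Binding positions do not measure expression, so marker levels could not be read.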

How the data were processed

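Per the labels' protocols, p63 ChIP-seq libraries of MK1 and MK2 were sequenced as 50 bp single-end reads. Per the labels, the authors ran IDR, which keeps peaks ranked alike in replicates, on both p63 libraries. Build mm10, Bowtie 1.1.1 and SAMtools 1.1 are listed in the submitters' processing notes. For the peak caller and its thresholds, nothing was given in the sources used here. The deposited list has 3 columns (chromosome, start, end) and no score. Starts were made 1-based.

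Genes came from a RefSeq table of GRCm38.p6, which shares mm10 coordinates. Rows ending below 3 Mb outside Y (340 of 49939) have scaffold positions and were left out. Strand and starts came from the RefSeq promoter table, which held 7 of 10 members (not Bmp2, Bmp7 or Smad7). Of 64 wider genes, 1 was matched by an older symbol (Ctgf, now Ccn2). Distances are from peak midpoints. The nearest gene is the protein-coding gene holding the peak, otherwise that with the nearest end.

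Members, lists and roles were chosen with earlier results of these data known. All members were named, and of the wider list the 8 genes with most peaks (ties by distance); other genes were named after their values were seen. No test was run: values are described beside all protein-coding genes. Counting was checked on simulated peaks. Intervals are 95% Wilson. Python 3.11.15, pandas 2.3.3 and scipy 1.17.1 were used.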

Additional observations from a re-analysis of the deposited data

How the results depend on the processing

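Flanks of 25 and 100 kb, counting a peak only for its containing or nearest gene, keeping peaks at or above the median width, any overlap in place of midpoints, and counts per 100 kb of window were tried, and starts from the promoter table for position. Of 43 alternative values, 36 stayed near the reported ones (within 1.5 times for counts and ratios, within the 95% interval for position and width) and 7 did not. Counting any overlap changed no value, and keeping wide peaks can only lower counts and raise the median width. With a 25 kb flank the receptors had 6 peaks, and with 100 kb the Smads had 6. With wide peaks alone, ligands had 2 peaks, receptors 5, 0% lay inside genes, and the ratio of Smads to ligands per gene was 3.75. The peak inside Tgfbr2, at 304 bp, fell just short of the 305 bp limit. With nearest genes the ratio of receptors to ligands was 1.67. That ratio ranged over 1.67 to 4.17 in all alternatives, and that of Smads to ligands over 1 to 3.75. Between 6 and 9 members had a peak. No paired analysis was possible because MK1 and MK2 share 1 joint list, and leaving out a line was not possible for the same reason. Depth is unknown, so a missing peak does not show missing binding, and nearness does not show regulation.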

Other observations

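Several genes listed as targets of TGF-beta or BMP signals, and the ligand gene Gdf15, had peaks inside the gene. All were picked here after their values were seen. Id2, which encodes an inhibitor of helix-loop-helix factors, had 3 peaks, 1 of them inside the gene. Cdkn2b, which encodes the cell cycle inhibitor p15, also had 3 peaks, 1 of them inside. Tgfbi, which encodes a matrix protein, had 3 peaks and 2 of them were inside. Gdf15, a stress-induced ligand gene, had 3 peaks, of which 1 lay inside its 3.1 kb body. A count of 3 or more is reached by 9.69% of protein-coding genes. Ccn2, Id3 and Id4 had 0 peaks within 50 kb.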
